A study of Mus musculus with 23 samples.

Results

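The genes described are 28 genes of cholesterol synthesis and of its control by SREBP, the sterol regulatory element binding proteins, taken by name from the deposited table of raw read counts. All 28 were found among the 23723 distinct gene symbols of that table, all passed the filter on low counts in every comparison, and none was at 0 in any library. They fall into 8 genes of the mevalonate and isoprenoid steps (Acat2, Hmgcs1, Mvk, Pmvk, Mvd, Idi1, Fdps, Ggps1), 11 genes of the squalene and sterol steps (Fdft1, Sqle, Lss, Cyp51, Lbr, Tm7sf2, Nsdhl, Hsd17b7, Ebp, Sc5d, Dhcr7), 5 genes of SREBP control (Srebf1, Srebf2, Scap, Insig1, Insig2), 3 genes of sterol transport (Npc1, Npc2, Stard4) and 1 gene of acetyl-CoA supply (Acss2).

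Cells build cholesterol from acetyl-CoA through mevalonate, isoprenoids, squalene and lanosterol. When sterols in the endoplasmic reticulum are low, SCAP carries SREBP to the Golgi, where it is cut and freed to enter the nucleus and switch on most genes of the pathway; when sterols are high, INSIG proteins hold the SCAP and SREBP complex back. In the mouse embryo the pathway feeds membranes, lipid-modified signalling proteins such as Hedgehog, and steroid precursors, and loss of several of its enzymes is known to disturb development.

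Post-implantation mouse embryos at E6.25 were split into extra-embryonic tissue (ExE) and epiblast (E), the layer that forms the embryo proper. They were Tet1gt/gt (ZZ), Tet1gt/wt (Zwt) or wild type (wt), where gt is a trapped allele of the gene for the DNA demethylation enzyme TET1, and the position of the trap is not stated in the labels. ExE gave 3 ZZ, 4 Zwt and 4 wt libraries and E gave 4 of each genotype; every library is a pool of 6 or more embryos from 2 or 3 litters, grouped once their genotypes were known, so a library averages over embryos. The series asks what TET1 does in each lineage.

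Libraries held 4912215 to 9494814 counts. Levels are given as CPM, the read count divided by the library total as scaled by the TMM method and set to a common size, and folds as log2 fold changes ± standard error (SE) from the edgeR quasi-likelihood test, with p-values adjusted by Benjamini-Hochberg over all genes tested and a threshold of 0.05. Tet1 itself lay at 21.5 to 37.7 CPM in ZZ, 39.4 to 57.2 CPM in Zwt and 77.0 to 109.9 CPM in wt ExE, and at 54.9 to 112 CPM in ZZ, 66.0 to 148 CPM in Zwt and 127 to 197 CPM in wt E; ZZ and wt pools did not overlap in either tissue. The 12 extra-embryonic ectoderm markers summed to 1543 to 3035 CPM in ExE pools, against 77.0 to 584 CPM in E pools. The 10 epiblast markers summed to 959.5 to 3219 CPM in ExE pools, against 3969 to 6028 CPM in E pools, so the pools match their labels. Whether RNA of the other tissue's markers came from carried-over cells or from the named tissue itself was not tested. Because tissues were lysed in bulk, a lower value cannot be divided into fewer cells of a type and less RNA per cell. The 4 Y-linked genes summed to 4.56 to 90.5 CPM in ExE pools, against 31.0 to 185 CPM in E pools. Sex was not part of any fit, and its part in the values was not tested.

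A set of 3 libraries stood apart, ZZ ExE pool 3, ZZ E pool 3 and Zwt E pool 4. In them, levels relative to the tissue mean declined with exon length, with slopes of -0.26 to -0.32 in log2 units per doubling of length, against -0.08 to 0.15 in the other libraries. In the same fit their levels rose with GC content, by 0.53 to 0.62 log2 units per 10% GC, against -0.32 to 0.24 in the other libraries. Below, these libraries are named by their length slope, though both slopes set them apart. In each of the 3, Hmgcs1, Idi1, Cyp51, Lbr, Hsd17b7, Sc5d, Insig2, Stard4 and Acss2 had the lowest value of their group, and Mvk, Mvd, Fdps, Tm7sf2, Ebp, Srebf1, Scap and Npc2 the highest. The median GC content was 43.9% for the 9 genes that were lowest and 53.8% for the 8 that were highest. Lbr, whose product is the lamin B receptor and also a sterol reductase, shows the size of this. It had 648, 159 and 589 CPM in the ZZ ExE pools 1, 3 and 4, and 436, 371, 165 and 481 CPM in the ZZ E pools 1 to 4. The low value of each series is the pool with the steep slope.

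Per kilobase of exon, the members covered a wide range of levels in a similar order in both tissues. Lbr was highest, at 153 ± 41.1 CPM per kb in ExE (SD, n = 11) and 121 ± 37.3 CPM per kb in E (SD, n = 12). Acat2, the cytosolic thiolase that joins acetyl-CoA units at the entry to the pathway, followed at 85.7 ± 7.75 CPM per kb in ExE and 87.9 ± 6.93 CPM per kb in E, and Fdps, which makes farnesyl diphosphate, at 71.2 ± 16.4 CPM per kb in ExE and 77.3 ± 19.6 CPM per kb in E. Acat2 and Fdps, neighbours in this order, differed by less than the SD of Fdps in both tissues. Fdps shares 77.4% of its exon bases with an annotated neighbouring transcript, Gm43738, that has no row of its own in the table, so its level is uncertain. The lowest was Acss2, which makes acetyl-CoA from acetate, at 2.09 ± 1.24 CPM per kb in ExE and 1.11 ± 0.37 CPM per kb in E, followed upwards by the sterol reductase Tm7sf2 in ExE (2.14 ± 1.13 CPM per kb) and by Stard4 in E (1.83 ± 0.92 CPM per kb). Tm7sf2 encodes an enzyme of the same sterol reduction as Lbr and stood at 2.89 ± 1.11 CPM per kb in E.

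Comparing ExE with E asks which genes of the pathway differ between the lineages. The 3 genotypes give 3 comparisons that share no library. In ZZ embryos 4 of the 28 genes rose in ExE and 0 fell (Pmvk, Mvd, Ebp and Sc5d), which is 14.3% of the members, where 16.8% of all 13595 genes tested passed (9.12% higher, 7.66% lower). In Zwt embryos 2 rose (Pmvk, Ebp) and 1 fell (Fdft1), or 10.7%, where 27% of all genes passed (12% higher, 14.9% lower). In wt embryos 2 rose (Srebf1, Srebf2) and 1 fell (Fdft1), again 10.7%, where 17.3% of all genes passed (9.28% higher, 7.98% lower). The members' shares are given beside those of all genes as a description, since the counts are small and move with single pools. Their median log2 fold change was 0.22 in ZZ, 0.19 in Zwt and 0.11 in wt embryos, beside medians of 0.00, -0.05 and -0.01 over all genes tested. With a library left out in turn the members' median ranged over 0.10 to 0.30 in ZZ, 0.15 to 0.25 in Zwt and -0.03 to 0.15 in wt embryos, where its sign turned without wt E pool 5. A further contrast, chosen after the values were seen, averages the 3 genotypes: 7 members rose in ExE and 3 fell, which is 35.7% of them, where 46.1% of all genes passed (22.1% higher, 23.9% lower). Pools of the tissues did not overlap for 4 members in ZZ embryos (3 higher in ExE, where 11.3% of all genes were, and 1 lower, where 12.1% were), 4 in Zwt embryos (2 higher, 14.4%; 2 lower, 15.3%) and 7 in wt embryos (4 higher, 14.3%; 3 lower, 13.8%).

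**Figure D1:**
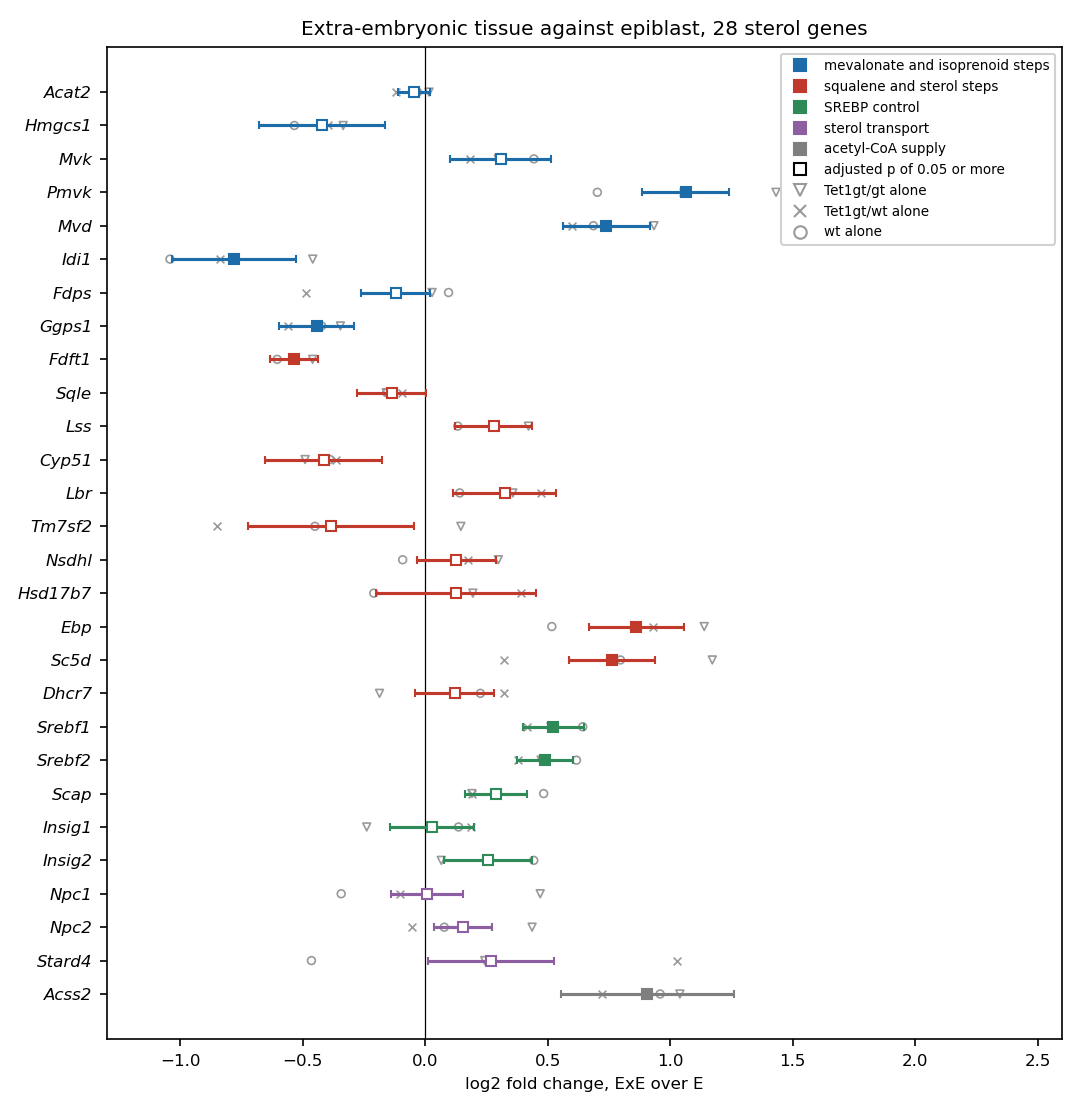
Log2 fold change of ExE over E for the 28 genes, grouped by role. Squares give the mean of the 3 genotypes with its SE, filled where the adjusted p is under 0.05; grey symbols give each genotype alone. Pmvk, Ebp, Acss2, Sc5d, Mvd, Srebf1 and Srebf2 lie to the right of 0 with filled squares, and Idi1, Fdft1 and Ggps1 to the left.

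The labels state that, in 3 of 4 pools, E and ExE of the same number came from the same litters, so the tissue comparisons were also fitted with the pool as a block. In that fit a library without a partner of its number adds nothing to the tissue contrast. This holds for ZZ E pool 2, Zwt E pool 4 and Zwt ExE pool 1. Zwt E pool 4 is a library of steep length slope, so pairing and its loss cannot be told apart in Zwt. ZZ E pool 3 and ZZ ExE pool 3 are both of steep slope and share a block. In ZZ and over the 3 genotypes, pairing and that shared slope thus cannot be told apart either. With the pool as a block the count of called members was 6 in ZZ (4 higher, 2 lower), 9 in Zwt (4 higher, 5 lower) and 7 in wt embryos (4 higher, 3 lower). Over the 3 genotypes it was 14 (8 higher, 6 lower). All genes gained calls in the same fit: 20.9% passed in ZZ, beside 21.4% of the members, 30.6% in Zwt, beside 32.1%, 25.8% in wt embryos, beside 25%, and 51.2% over the 3 genotypes, beside 50%. The genes added in the blocked fit over the 3 genotypes were Lbr and Scap, which rose, and Hmgcs1, Sqle and Cyp51, which fell; Acss2 no longer passed. Without the 3 libraries of steep length slope the counts were 3 in ZZ (10.7%, where 20% of all genes passed), 8 in Zwt (28.6%, where 35.6% passed), 8 in wt embryos (28.6%, where 26.3% passed) and 12 over the 3 genotypes (42.9%, where 52.6% passed). Hmgcs1 and Lbr were the members added over the 3 genotypes, and in ZZ embryos Pmvk (adjusted p = 0.080) and Ebp (adjusted p = 0.069) no longer passed. Leaving out single pools also moved the counts. The ZZ count was 2 without ZZ E pool 2, ZZ E pool 4, ZZ ExE pool 1 or ZZ ExE pool 3. In wt embryos the count was 0 without wt E pool 2 and 1 without wt E pool 5, wt ExE pool 2 or wt ExE pool 5, and in Zwt embryos it was 6 without Zwt E pool 4. Over the 3 genotypes, with each of the 23 libraries left out in turn, the count stayed between 8 and 11.

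Among the 5 control genes, both SREBP genes rose in ExE over the 3 genotypes, where 22.1% of all genes rose. Scap, Insig1 and Insig2 did not pass. The promoters of Insig1 and Srebf2 are shown with those of Pmvk and Ebp, which are described further on, because they are members whose levels are given in every pool and because they differ in what they hold. Insig1 is a member with the core of a sterol regulatory element, the sequence SREBP binds. Each is the 250 bases before the RefSeq start on GRCm38.p6, 5′ to 3′ on the gene's strand: Insig1 on the plus strand of chr5:28071162-28071411, Srebf2 on the plus strand of chr15:82147019-82147268, Pmvk on the plus strand of chr3:89454291-89454540 and Ebp on the minus strand of chrX:8193513-8193762. Capitals mark the sterol regulatory element core (CACNCCAC), the NF-Y box (CCAAT) and the GC box (GGGCGG), searched on both strands.
Insig1: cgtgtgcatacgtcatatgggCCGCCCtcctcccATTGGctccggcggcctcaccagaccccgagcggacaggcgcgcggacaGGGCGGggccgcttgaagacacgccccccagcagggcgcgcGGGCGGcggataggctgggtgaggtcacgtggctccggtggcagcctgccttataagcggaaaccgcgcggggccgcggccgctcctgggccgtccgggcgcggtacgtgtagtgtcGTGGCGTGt
Srebf2: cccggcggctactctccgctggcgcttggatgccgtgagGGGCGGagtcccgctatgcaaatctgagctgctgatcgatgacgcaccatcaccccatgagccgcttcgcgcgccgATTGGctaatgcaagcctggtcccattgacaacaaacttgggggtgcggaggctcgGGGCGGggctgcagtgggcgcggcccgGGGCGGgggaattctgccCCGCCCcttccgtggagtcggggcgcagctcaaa
Pmvk: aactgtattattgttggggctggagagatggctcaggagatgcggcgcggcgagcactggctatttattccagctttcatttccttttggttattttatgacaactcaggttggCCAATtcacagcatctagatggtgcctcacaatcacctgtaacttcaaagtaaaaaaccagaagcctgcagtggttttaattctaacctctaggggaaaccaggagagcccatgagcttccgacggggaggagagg
Ebp: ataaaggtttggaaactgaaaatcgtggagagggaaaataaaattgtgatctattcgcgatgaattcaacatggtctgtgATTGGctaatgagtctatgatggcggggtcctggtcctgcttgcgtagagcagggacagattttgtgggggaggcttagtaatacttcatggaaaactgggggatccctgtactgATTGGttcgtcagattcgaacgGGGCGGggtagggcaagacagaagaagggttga

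In these windows the Insig1 core lies on the minus strand 9 to 2 bases before the start, and the other 3 promoters hold no exact match to the core. Of the 28 members, 23 had an entry in the RefSeq promoter table. The core was present in 3 of them (13%; Acat2, Hmgcs1 and Insig1), against 5.29% of all 32851 promoters of that table. The NF-Y box, bound by a factor known to act with SREBP, was present in 20 of the 23 (87%), against 33.8% of all promoters, and the GC box, bound by SP1, in 18 of the 23 (78.3%), against 32.7%. These are exact matches of letters only, and a window without them says nothing about binding at near matches within it or elsewhere. Where a member had several entries, as Pmvk with 2, the entry nearest the annotated gene start was used. The share of all promoters counts every entry of every gene, so the sets compared are unlike.

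Srebf1 encodes the SREBP best known for fatty acid synthesis. In ZZ embryos it stood at 85.9, 113 and 90.8 CPM in ExE, against 57.8, 43.1, 89.2 and 80.6 CPM in E. In Zwt embryos it stood at 121, 103, 119.5 and 128 CPM in ExE, against 87.0, 79.0, 109 and 77.4 CPM in E. The wt pools had 111, 107, 129 and 121 CPM in ExE, against 66.3, 82.2, 96.6 and 54.8 CPM in E. All wt ExE pools lay above all wt E pools, while in ZZ and Zwt embryos a single E pool, in each case the one with the steep length slope, reached into the ExE range. Its log2 fold change was 0.64 ± 0.21 in wt embryos (edgeR adjusted p = 0.037), 0.51 ± 0.22 in ZZ (adjusted p = 0.12) and 0.41 ± 0.21 in Zwt (adjusted p = 0.15, and 0.032 with the pool block). Averaged over genotypes it was 0.52 ± 0.12 (adjusted p = 0.0014), a 1.44-fold rise. The wt call was lost when any of 6 single pools was left out (wt E pools 1, 2 and 5, wt ExE pools 2, 4 and 5, highest adjusted p 0.13). The call over the 3 genotypes held without each single library. After GC and length correction Srebf1 passed in each genotype (edgeR adjusted p = 0.021 in ZZ, 0.025 in Zwt and 0.015 in wt embryos). In that fit 22.5% of all genes passed in ZZ, 33.8% in Zwt and 23.5% in wt embryos.

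Srebf2 encodes the SREBP best known for cholesterol synthesis. ZZ embryos had 190.0, 271 and 153 CPM in ExE, against 151, 127, 151 and 160.1 CPM in E. Zwt embryos had 149.8, 183, 199 and 202 CPM in ExE, against 118, 147, 152 and 146 CPM in E. The wt embryos had 198, 236, 189 and 208 CPM in ExE, against 160.1, 118, 172 and 91.7 CPM in E. Separation was complete in wt embryos, and in the other two genotypes the lowest ExE pool fell within the E range. Srebf2 differed by a log2 fold change of 0.62 ± 0.19 in wt embryos (adjusted p = 0.029; not passed without wt E pool 2 or 5, or wt ExE pool 2 or 5), 0.47 ± 0.21 in ZZ (adjusted p = 0.12) and 0.38 ± 0.19 in Zwt (adjusted p = 0.15). In the average over genotypes Srebf2 rose by 0.49 ± 0.11 on the log2 scale, 1.40-fold (adjusted p = 0.0012). After GC and length correction Srebf2 also passed in each genotype (edgeR adjusted p = 0.023 in ZZ, 0.038 in Zwt and 0.010 in wt embryos). The shares of all genes in that fit are those given for Srebf1.

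Scap, the escort of SREBP, had 69.1, 81.0 and 43.7 CPM in ZZ ExE, 48.4, 58.1, 82.7 and 58.4 CPM in Zwt ExE and 54.7, 61.6, 88.5 and 70.7 CPM in wt ExE. The E pools had 51.7, 58.0, 65.0 and 51.3 CPM in ZZ, 53.2, 56.6, 57.8 and 48.3 CPM in Zwt and 40.1, 60.3, 52.8 and 43.7 CPM in wt embryos. The tissues overlapped in every genotype, with 5 of 11 ExE pools above all 12 E pools. Averaged over the 3 genotypes its log2 fold change was 0.29 ± 0.13 (adjusted p = 0.064), and it passed with the pool block (0.32 ± 0.11, adjusted p = 0.022). An annotated transcript on the other strand, 5830462I19Rik, covers 18.6% of the exon bases of Scap, and no source used here gives the strand setting of the counting.

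Insig1, itself a textbook SREBP target and the sensor that holds the complex back, had 51.4, 14.3 and 38.9 CPM in ZZ ExE, 58.3, 65.2, 61.3 and 52.8 CPM in Zwt ExE and 58.3, 78.2, 48.9 and 51.8 CPM in wt ExE. The E pools had 51.7, 29.7, 32.8 and 51.1 CPM in ZZ, 59.1, 60.1, 43.4 and 45.4 CPM in Zwt and 59.1, 63.3, 58.6 and 34.9 CPM in wt embryos. The tissues overlapped throughout, and the lowest of the 23 values, 14.3 CPM, is ZZ ExE pool 3. Insig1 had a log2 fold change over the 3 genotypes of 0.03 ± 0.17 (adjusted p = 0.92).

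Insig2, the second retention protein, had 30.8, 19.3 and 41.3 CPM in ZZ ExE, 33.1, 34.9, 34.0 and 27.7 CPM in Zwt ExE and 32.5, 26.0, 26.5 and 51.4 CPM in wt ExE. The E pools had 29.8, 33.1, 21.5 and 32.2 CPM in ZZ, 34.4, 24.6, 20.6 and 28.5 CPM in Zwt and 20.9, 12.9, 38.7 and 27.9 CPM in wt embryos. No genotype separated the tissues, and the log2 fold change over the 3 genotypes was 0.26 ± 0.18 (adjusted p = 0.26). Whether the ExE over E difference of the SREBP genes differs from that of the INSIG genes was not tested.

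**Figure D2:**
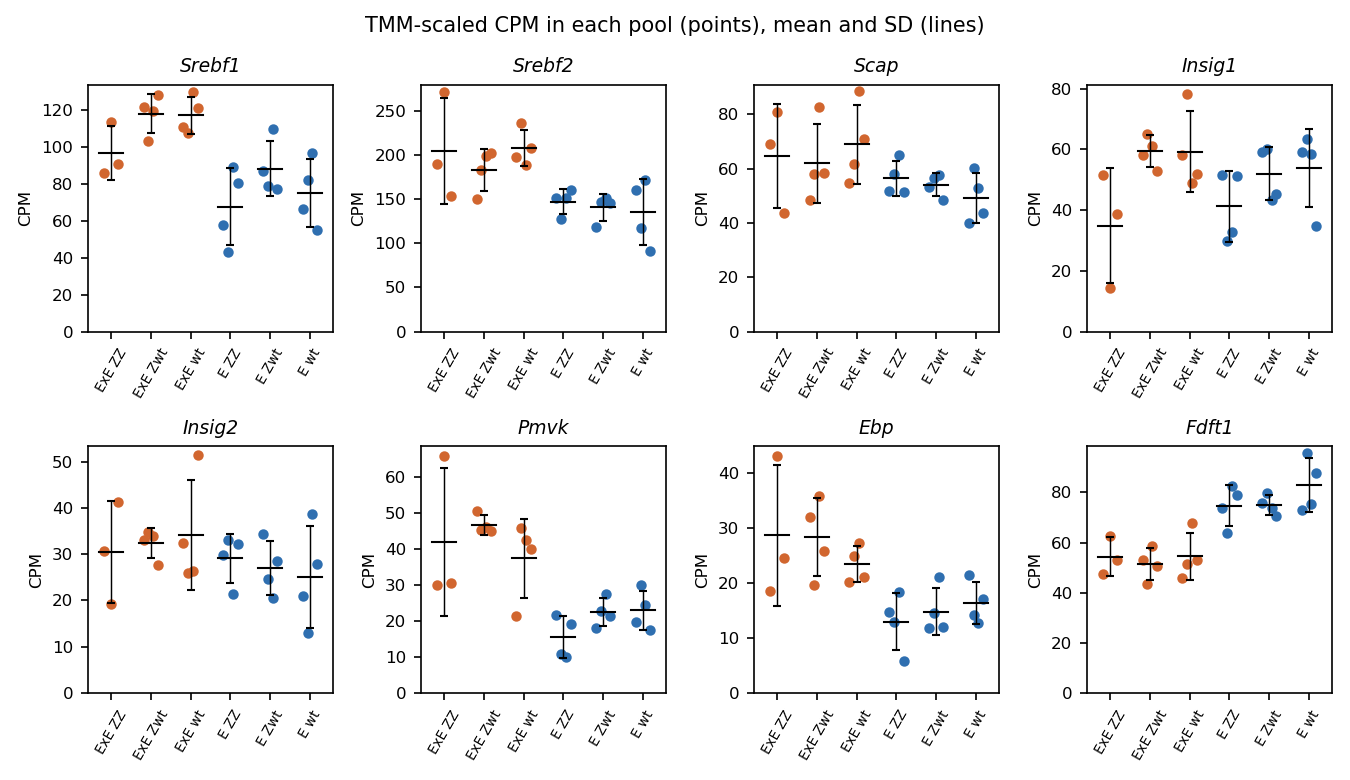
TMM-scaled CPM of 8 genes in every pool, with ExE groups in orange to the left of E groups in blue, and within each tissue ZZ, Zwt and wt; horizontal lines are group means and bars the SD. Srebf1, Srebf2, Pmvk and Ebp sit higher in ExE, Fdft1 lower in ExE with no overlap within a genotype, and Scap, Insig1 and Insig2 overlap.

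Of the 8 mevalonate and isoprenoid genes, 2 rose in ExE over the 3 genotypes (Pmvk and Mvd), 2 fell (Idi1 and Ggps1) and 4 did not pass, with a median of -0.08. Of all genes, 22.1% rose and 23.9% fell in that contrast. Pmvk and Mvd encode phosphomevalonate kinase and mevalonate diphosphate decarboxylase, successive steps that turn phosphomevalonate into isopentenyl diphosphate, and Idi1 encodes the isomerase that acts next. The neighbouring steps thus had opposite signs.

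Pmvk had 30.0, 65.8 and 30.4 CPM in ZZ ExE, against 21.7, 10.9, 10.1 and 19.3 CPM in ZZ E. Zwt embryos had 50.7, 45.2, 46.1 and 44.9 CPM in ExE, against 18.1, 22.8, 27.5 and 21.3 CPM in E. The wt pools had 21.5, 45.7, 42.4 and 40.0 CPM in ExE, against 19.7, 29.9, 24.6 and 17.6 CPM in E. The tissues separated in ZZ and Zwt embryos, and in wt embryos 1 ExE pool, pool 1, lay within the E range. In that pool 0 of 20 visceral endoderm markers were at 0 and their mean log2 CPM was 4.27, against -0.52 to 1.94 in the other ExE pools. Their summed level of 1209 CPM lay within the 1027 to 1393 CPM of all ExE pools (E pools 128 to 1352 CPM). That sum does not follow how many markers are present, since wt ExE pool 2 reached 1223 CPM with 11 of the 20 at 0. The part of visceral endoderm cells in the result was not tested. Pmvk differed by a log2 fold change of 1.43 ± 0.32 in ZZ (adjusted p = 0.0048), 1.05 ± 0.30 in Zwt (adjusted p = 0.012) and 0.70 ± 0.30 in wt embryos (adjusted p = 0.12). Averaged over genotypes, Pmvk was 2.09-fold higher in ExE (1.06 ± 0.18, adjusted p = 4.43e-05).

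Mvd had 70.2, 143 and 58.0 CPM in ZZ ExE, against 32.8, 44.4, 71.9 and 39.8 CPM in ZZ E. In Zwt embryos it had 90.4, 71.9, 79.6 and 96.3 CPM in ExE, against 48.4, 40.8, 92.7 and 40.7 CPM in E, and in wt embryos 60.9, 81.5, 107 and 65.2 CPM in ExE, against 48.4, 53.9, 46.9 and 45.8 CPM in E. Only the E pools of steep slope, at 71.9 and 92.7 CPM, entered the ExE range. Mvd had a log2 fold change over the 3 genotypes of 0.74 ± 0.18 (adjusted p = 0.0016), and with the pool block Mvd passed in each genotype (adjusted p = 0.0078 in ZZ, 0.0032 in Zwt and 0.013 in wt embryos). Without the block it passed in ZZ embryos alone (0.93 ± 0.32, adjusted p = 0.048), and there it did not pass without ZZ E pool 1, 2 or 4 or ZZ ExE pool 1 or 3 (0.45 ± 0.32 without the last).

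Idi1 had 108, 20.7 and 119 CPM in ZZ ExE, against 149.8, 110.1, 45.5 and 149 CPM in ZZ E. Its Zwt values were 79.9, 81.0, 66.3 and 68.4 CPM in ExE, against 163, 170.5, 43.5 and 150.4 CPM in E, and its wt values 90.7, 80.7, 51.7 and 93.6 CPM in ExE, against 143, 184, 141 and 185 CPM in E. The wt groups did not overlap, and the low pools elsewhere, at 20.7, 45.5 and 43.5 CPM, are the 3 of steep slope. Idi1 was 0.58 times its E level in ExE over the 3 genotypes (log2 fold change -0.78 ± 0.25, adjusted p = 0.014), and -0.95 ± 0.10 with the pool block (adjusted p = 4.27e-06). It passed in no genotype alone without the block and in each with it (adjusted p = 0.028 in ZZ, 3.48e-04 in Zwt and 3.54e-04 in wt embryos). Ggps1, which makes geranylgeranyl diphosphate for the prenylation of proteins, ranged from a lowest of 32.1 through a median of 35.7 to a highest of 53.5 CPM in ExE, against 33.8, 51.5 and 80.9 CPM in E. Its log2 fold change of -0.44 ± 0.15 (adjusted p = 0.021) did not pass after correction for GC content and length (-0.39 ± 0.18, adjusted p = 0.070) or without ZZ ExE pool 1 (adjusted p = 0.055).

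The other 4 genes of these steps did not pass over the 3 genotypes. Hmgcs1, the HMG-CoA synthase that is a standard SREBP target, had a log2 fold change of -0.42 ± 0.26 (adjusted p = 0.19), which passed without the 3 libraries of steep slope (-0.50 ± 0.12, adjusted p = 0.0015) and with the pool block (-0.52 ± 0.09, adjusted p = 3.21e-04). Mvk, the mevalonate kinase just before Pmvk, had 0.31 ± 0.21 (adjusted p = 0.24), Fdps -0.12 ± 0.14 (adjusted p = 0.51) and Acat2 -0.04 ± 0.07 (adjusted p = 0.61). Acat2 was the steadiest of all members, with 180.0 to 243 CPM in ExE and 190.3 to 243 CPM in E.

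**Figure D3:**
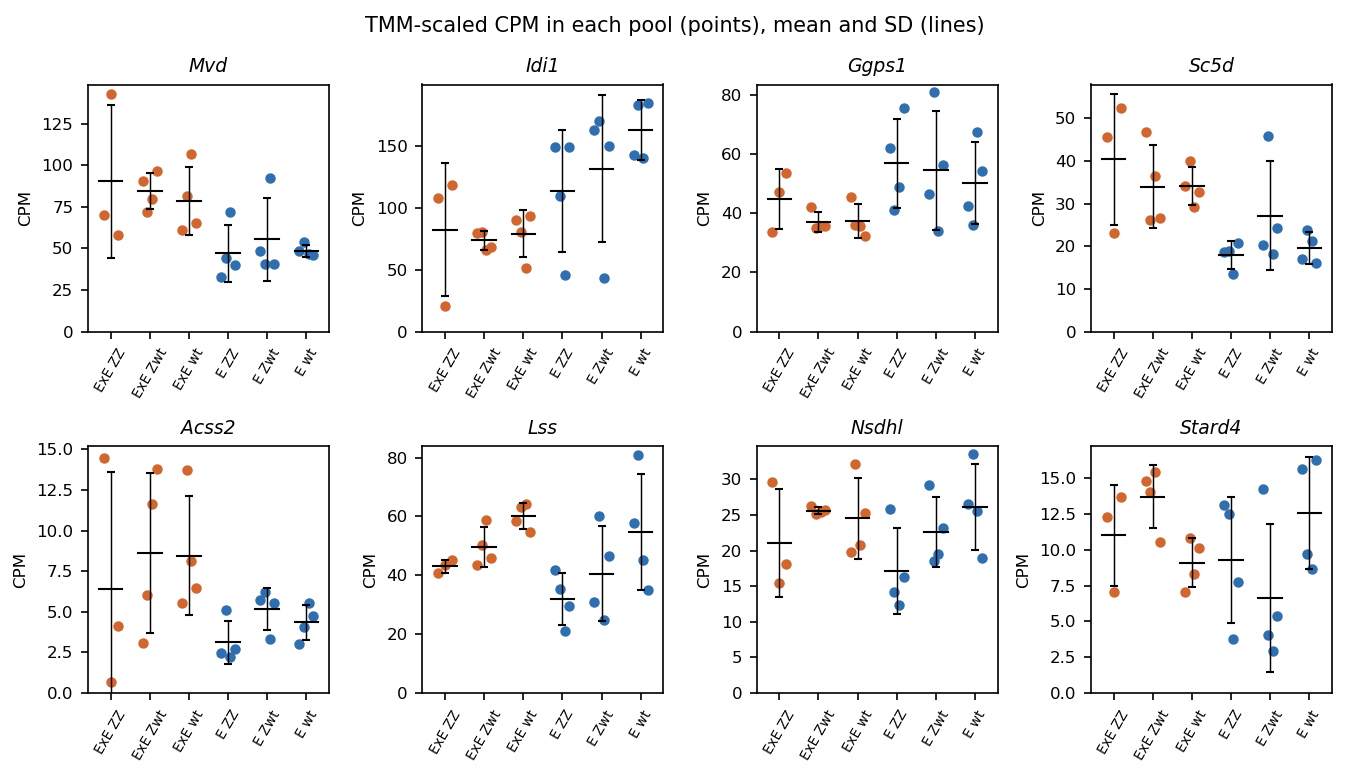
TMM-scaled CPM of 8 further genes in every pool, with ExE groups in orange left of E groups in blue and lines for the group mean and SD. Mvd, Sc5d and Acss2 are higher on average in ExE and Idi1 and Ggps1 lower, while Lss and Nsdhl have their lowest group means in ZZ E and Stard4 in Zwt E.

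Of the 11 squalene and sterol genes, 2 rose in ExE over the 3 genotypes (Ebp and Sc5d), 1 fell (Fdft1) and 8 did not pass, with a median of 0.13. The shares of all genes were 22.1% higher and 23.9% lower. Ebp and Sc5d encode the sterol isomerase and the sterol desaturase that act one after the other late in the pathway, and Fdft1 encodes squalene synthase, the step that commits farnesyl diphosphate to sterols.

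Ebp had 18.5, 43.1 and 24.5 CPM in ZZ ExE, against 14.7, 12.9, 18.4 and 5.92 CPM in ZZ E. In Zwt embryos it had 32.0, 19.7, 35.9 and 25.8 CPM in ExE, against 11.8, 14.5, 21.1 and 11.95 CPM in E. The wt pools had 20.3, 24.9, 27.4 and 21.2 CPM in ExE, against 21.4, 14.2, 12.8 and 17.1 CPM in E. ZZ pools did not overlap, though the closest differed by under 1 CPM, and in Zwt and wt embryos 1 E pool each reached the lowest ExE pools. Ebp differed by a log2 fold change of 1.14 ± 0.35 in ZZ (adjusted p = 0.028; not passed without ZZ E pool 2 or 4 or ZZ ExE pool 3), 0.93 ± 0.33 in Zwt (adjusted p = 0.038; not passed when any of 6 single pools was left out) and 0.52 ± 0.32 in wt embryos (adjusted p = 0.31). Averaged over genotypes, Ebp was 1.82-fold higher in ExE (0.86 ± 0.19, adjusted p = 8.72e-04).

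Sc5d had 45.6, 23.1 and 52.5 CPM in ZZ ExE, against 18.6, 19.0, 13.4 and 20.8 CPM in ZZ E. Its Zwt values were 46.6, 26.1, 36.4 and 26.7 CPM in ExE, against 20.2, 45.9, 18.1 and 24.2 CPM in E, and its wt values 34.1, 40.0, 29.2 and 32.8 CPM in ExE, against 17.1, 23.9, 21.3 and 15.95 CPM in E. ZZ and wt pools separated completely, and Zwt E pool 3, at 45.9 CPM, was the single E pool among the ExE values. Sc5d differed by a log2 fold change of 1.17 ± 0.32 in ZZ (adjusted p = 0.015; not passed without ZZ ExE pool 1 or 4), 0.80 ± 0.30 in wt embryos (adjusted p = 0.070) and 0.32 ± 0.30 in Zwt (adjusted p = 0.47). The wt difference passed with the pool block (0.81 ± 0.21, adjusted p = 0.014). Averaged over genotypes it was 0.76 ± 0.18 (adjusted p = 0.0012).

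Fdft1 had 47.5, 62.6 and 53.1 CPM in ZZ ExE, against 73.9, 63.7, 82.5 and 78.9 CPM in ZZ E. In Zwt embryos it had 53.2, 43.6, 58.8 and 50.6 CPM in ExE, against 75.7, 79.8, 73.9 and 70.5 CPM in E. The wt pools had 45.7, 51.6, 67.8 and 53.2 CPM in ExE, against 72.9, 95.9, 75.3 and 87.7 CPM in E. No ExE pool reached the E pools of its own genotype. Fdft1 differed by a log2 fold change of -0.46 ± 0.18 in ZZ (adjusted p = 0.078, and 0.039 with the pool block), -0.54 ± 0.16 in Zwt (adjusted p = 0.015; 0.056 without Zwt ExE pool 2) and -0.60 ± 0.16 in wt embryos (adjusted p = 0.013; 0.051 without wt E pool 2). Averaged over genotypes, Fdft1 was 0.69 times its E level in ExE (-0.54 ± 0.10, adjusted p = 9.62e-05). Ctsb, on the other strand, covers 20.9% of the exon bases of Fdft1, and reads of the shared bases cannot be told apart if the counting ignored strand.

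The 8 sterol genes that did not pass had log2 fold changes over the 3 genotypes of -0.42 (Cyp51, the lanosterol demethylase), -0.39 (Tm7sf2), -0.14 (Sqle, the squalene epoxidase), 0.12 (Dhcr7, the reductase that completes cholesterol), 0.13 (Nsdhl and Hsd17b7, which remove sterol methyl groups), 0.28 (Lss, the lanosterol synthase) and 0.32 (Lbr). Cyp51 (-0.71 ± 0.16, adjusted p = 0.0017), Sqle (-0.25 ± 0.07, adjusted p = 0.0091) and Lbr (0.20 ± 0.06, adjusted p = 0.017) passed with the pool block.

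The 3 transport genes did not pass in any genotype or over the 3 in the main fit. Npc1 and Npc2, which export cholesterol from lysosomes, had 22.2 ± 4.99 and 82.4 ± 15.96 CPM in ExE (SD, n = 11), against 22.4 ± 5.35 and 74.6 ± 14.5 CPM in E (SD, n = 12). Stard4, a soluble sterol carrier and SREBP target, had a log2 fold change of 1.03 ± 0.44 in Zwt (adjusted p = 0.088), 0.24 ± 0.47 in ZZ and -0.46 ± 0.44 in wt embryos. After GC and length correction it passed in Zwt (1.02 ± 0.37, edgeR adjusted p = 0.035). Acss2 rose in ExE over the 3 genotypes (0.91 ± 0.35, adjusted p = 0.040) but did not pass with the pool block (0.79 ± 0.39, adjusted p = 0.11) or in 14 of the 23 fits that each left out 1 library (highest adjusted p 0.28, without ZZ ExE pool 1, which had 14.4 CPM).

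The genotype comparisons ask whether a trapped Tet1 allele changes these genes within a tissue. In E, 0 of the 28 genes passed in ZZ against wt pools, where 2 of 12405 genes (0.0161%) did by edgeR and 17 by DESeq2, and 1 member had an unadjusted p under 0.05 (520 of all genes). The values nevertheless leaned one way: 24 of the 28 lay lower in ZZ, among them all 11 squalene and sterol genes, beside 49.2% of all genes tested. The members' median log2 fold change was -0.25 and that of the sterol genes -0.33, beside 0.01 over all genes, and the members' median stayed between -0.36 and -0.19 with an E pool left out in turn. The list itself was not tested.

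The mean log2 CPM of the 11 sterol genes was 5.11, 4.74, 4.63 and 5.08 in the ZZ E pools 1 to 4, against 5.46, 5.51, 5.22 and 5.15 in the wt E pools 1, 2, 4 and 5. All ZZ pools lay below all wt pools, and the Zwt E pools 2 to 5, at 5.37, 5.39, 4.85 and 5.28, spread over both. The lowest ZZ and the lowest Zwt value are the pools of steep slope. Without the 3 such libraries 11 of 11 sterol genes still lay lower (median -0.31), and after GC and length correction 10 of 11 did (median -0.32). Visceral endoderm markers varied within both groups, with a mean log2 CPM of 1.22 to 4.43 in ZZ and 1.05 to 5.50 in wt E pools. With their level as a covariate 11 of 11 lay lower (median -0.33). The part of visceral endoderm cells in the sterol values was not tested. Summed over 6 blood markers, ZZ pools had 25.0, 9.89, 3.78 and 7.11 CPM, against 6.44, 0.220, 0.814 and 1.48 CPM in wt pools, and over 9 streak mesoderm markers 123, 102, 125 and 112 CPM, against 363, 193, 359 and 82.4 CPM in wt pools. Blood markers thus lay mostly higher and streak markers mostly lower in ZZ, each with overlap through 1 wt pool. Their part in the sterol values was not tested. Over 4 Y-linked genes, ZZ pools summed to 108.7, 75.1, 46.3 and 134.9 CPM, against 130.9, 150.9, 150.2 and 144.6 CPM in wt pools. Nsdhl and Ebp lie on the X chromosome, and the part of sex in the sterol values was not tested. With single E pools left out, 10 or 11 of the 11 sterol genes lay lower in ZZ. For the 8 mevalonate genes the mean was 6.13, 5.83, 5.74 and 6.03 in ZZ pools, against 6.07, 6.35, 6.31 and 6.16 in wt pools, which overlap.

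**Figure D4:**
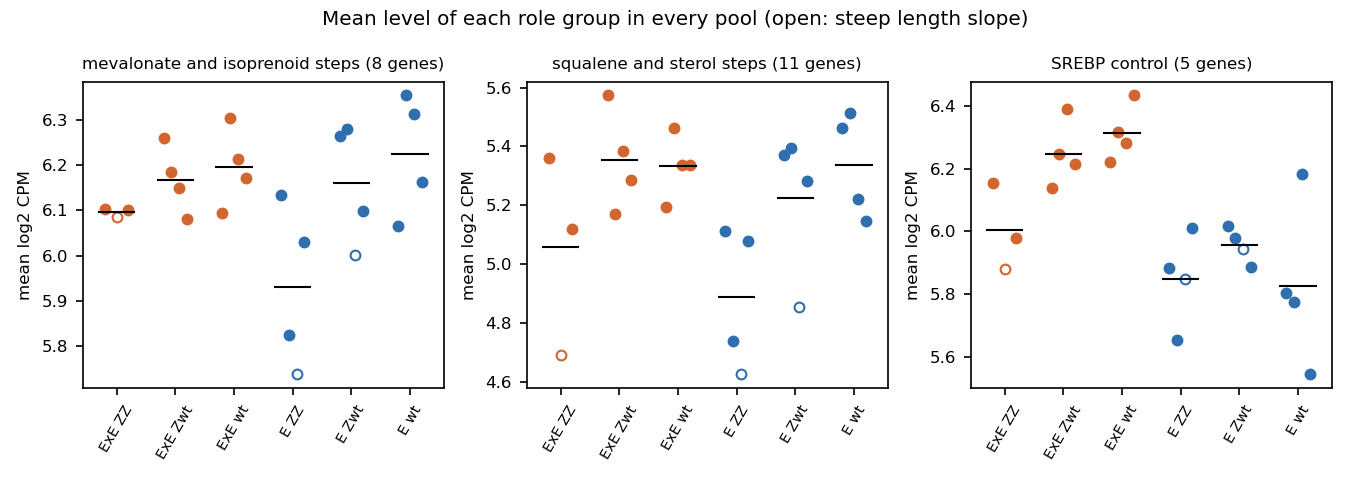
Mean log2 CPM of the mevalonate, sterol and control genes in every pool, ExE groups in orange left of E groups in blue; lines are group means and open circles the 3 libraries of steep length slope. For the sterol genes all 4 ZZ E pools lie below all 4 wt E pools, and for the control genes all wt ExE pools lie above all wt E pools.

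Single genes in ZZ against wt E were as follows. Lss, the cyclase that makes lanosterol, had 41.9, 35.5, 21.1 and 29.6 CPM in ZZ, against 57.6, 80.9, 45.3 and 35.2 CPM in wt pools, a log2 difference of -0.76 ± 0.33 (unadjusted p = 0.035, adjusted p = 0.96). The highest ZZ pools overlapped the lowest wt pool. Nsdhl had 25.8, 14.2, 12.4 and 16.3 CPM in ZZ, against 26.6, 33.6, 25.5 and 18.9 CPM in wt pools (-0.60 ± 0.28, adjusted p = 0.96), overlapping through ZZ pool 1. Acat2 had 199, 202, 190.3 and 201 CPM in ZZ, against 240.4, 243, 228 and 223 CPM in wt pools (-0.23 ± 0.12, adjusted p = 0.96). Acat2 was 1 of 2 members whose groups did not overlap, with Npc1 (16.8, 18.7, 21.8 and 18.1 CPM in ZZ, against 23.7, 30.3, 23.1 and 23.3 CPM in wt pools); both were lower in ZZ, while 2.12% of all genes tested were lower and 2.29% higher in ZZ without overlap.

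In Zwt against wt E, 0 members passed, where 0 of 12405 genes (0%) did by edgeR, 298 had an unadjusted p under 0.05 and DESeq2 called 4. The members split evenly, 14 lower and 14 higher, with a median of 0.01 (-0.09 to 0.02 with a pool left out). The smallest p-values belonged to Stard4 (-0.90 ± 0.52, with 14.3, 4.03, 2.96 and 5.38 CPM in Zwt against 15.7, 9.69, 8.68 and 16.2 CPM in wt pools), Sc5d (0.48 ± 0.31) and Lss (-0.42 ± 0.32), each with an adjusted p of 0.98. Both E comparisons share the wt pools, so that a high wt value lowers both. For 0 members did the Zwt and wt E pools not overlap, where 1.31% of all genes were higher and 1.53% lower without overlap.

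In ExE, 0 members passed in ZZ against wt pools, where 0 of 12355 genes (0%) did by edgeR, 935 had an unadjusted p under 0.05 and DESeq2 called 12. The count below wt was 19 of 28, with a median of -0.15 beside -0.02 over all genes, and 9 of the 11 sterol genes (median -0.21), beside 52.3% of all genes. Without ZZ ExE pool 3, the only ExE library of steep slope, 16 of 28 and 7 of 11 were lower, with a sterol median of -0.04. That pool also had the highest mean level of 10 decidua markers, 2.85 log2 CPM (283 CPM in sum, 1 marker at 0), against 0.62 and 1.16 (29.7 and 51.2 CPM) in the other ZZ ExE pools and -0.97 to 0.18 (7.64 to 29.0 CPM) in wt ExE pools. All ZZ ExE pools thus lay above all wt ExE pools in this level. A fit with it as a covariate cannot tell decidua from genotype or from ZZ ExE pool 3. The part of decidua in the values was not tested. With the decidua level as a covariate the members' median was 0.08 and 5 of 11 sterol genes lay lower.

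Lss was again the member of smallest p in this comparison. It had 40.6, 43.3 and 45.0 CPM in ZZ, against 58.3, 63.3, 64.1 and 54.5 CPM in wt ExE pools, a log2 difference of -0.49 ± 0.20 (unadjusted p = 0.027, adjusted p = 0.59). The groups did not overlap, as for 2.84% of all genes in this direction (3.03% in the other), and no other member showed this. Insig1 had 51.4, 14.3 and 38.9 CPM in ZZ, against 58.3, 78.2, 48.9 and 51.8 CPM in wt pools (-0.75 ± 0.35, unadjusted p = 0.049, adjusted p = 0.66), with ZZ pool 1 inside the wt range; its sign turned with the decidua covariate (0.30 ± 0.34, adjusted p = 0.82). Dhcr7 had 27.4, 17.2 and 18.1 CPM in ZZ, against 44.6, 20.7, 32.4 and 24.6 CPM in wt pools (-0.54 ± 0.30, adjusted p = 0.71), and overlapped.

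In Zwt against wt ExE, 0 members passed, where 0 of 12355 genes (0%) did by edgeR, 510 had an unadjusted p under 0.05 and DESeq2 called 25. The members' median was 0.01 (-0.06 to 0.05 with a pool left out), with 15 higher and 13 lower. Stard4 had 14.8, 14.1, 15.4 and 10.6 CPM in Zwt, against 7.08, 10.9, 8.34 and 10.1 CPM in wt pools (0.61 ± 0.33), Fdps 92.2, 87.3, 88.5 and 86.9 CPM in Zwt, against 95.3, 123, 115 and 130.3 CPM in wt pools (-0.37 ± 0.21), and Hsd17b7 was at 0.68 ± 0.46, each with an adjusted p of 1.00. Only Fdps separated the groups, lower in Zwt, as 2.06% of all genes did (1.78% higher).

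**Figure D5:**
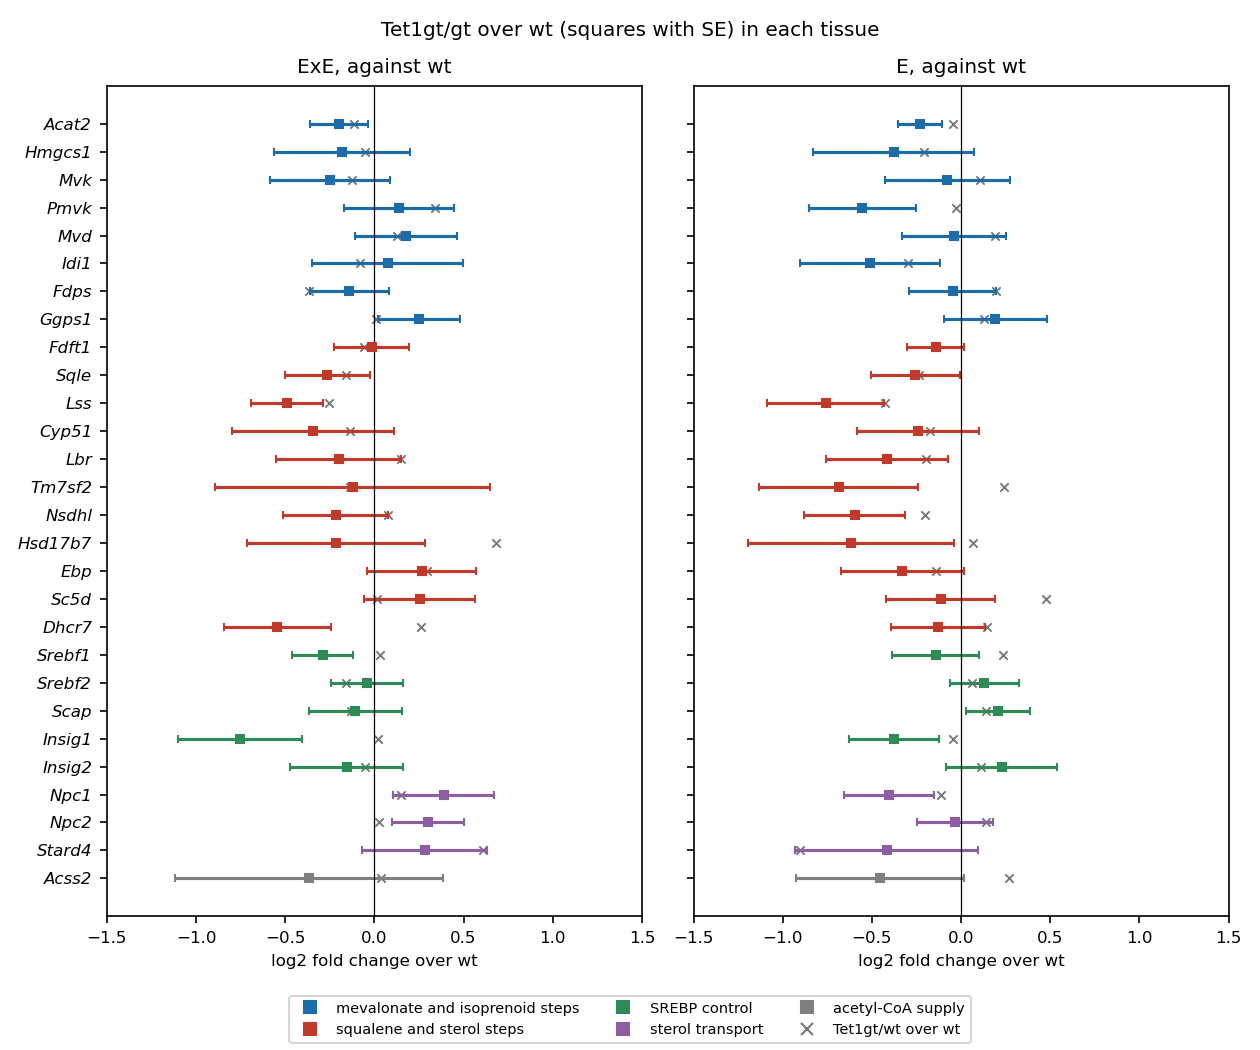
Log2 fold change over wt of the 28 genes in ExE (left) and E (right), ZZ as squares with SE and Zwt as crosses. In E all 11 squares of the squalene and sterol genes lie left of 0 and crosses lie on both sides; no gene passed the threshold in either tissue.

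Whether the genotype difference itself differed between tissues was tested as an interaction over all 23 libraries. For ZZ against wt, 0 members and 0 of 13595 genes (0%) passed by edgeR, with 416 genes at an unadjusted p under 0.05 and 3 called by DESeq2. Npc1 had the smallest p (0.81 ± 0.37, unadjusted p = 0.038, adjusted p = 1.00): its ZZ minus wt log2 difference was 0.39 ± 0.28 in ExE and -0.40 ± 0.25 in E. Pmvk (0.73 ± 0.44) and Ebp (0.62 ± 0.48) followed, both with ZZ higher than wt in ExE and lower in E. For Zwt against wt, 0 members and 0 of 13595 genes (0%) passed, with 716 at an unadjusted p under 0.05 and 28 called by DESeq2. Stard4 had the smallest p (1.49 ± 0.62, unadjusted p = 0.024, adjusted p = 0.85), followed by Fdps (-0.58 ± 0.34) and Sc5d (-0.48 ± 0.42). The p-values that missed the threshold do not show that the tissues responded alike.

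The wider network was taken from lists of neighbouring genes. Beside their counts, 9.12% of all genes rose and 7.66% fell in ZZ, 12% and 14.9% in Zwt, and 9.28% and 7.98% in wt embryos. Among 14 genes of sterol esterification, lipid storage and sterol exchange, 3 rose and 1 fell in ExE in ZZ, 3 rose and 1 fell in Zwt and 2 rose in wt embryos (median 0.11 over the 3 genotypes, beside -0.02 over all genes). Dgat2, which makes triglyceride, had a lowest value of 154, a median of 222 and a highest of 277 CPM in ExE, against 12.9, 27.4 and 74.8 CPM in E, without overlap (2.69 ± 0.27 over the 3 genotypes, adjusted p = 7.88e-08). Plin2, which coats lipid droplets, had 34.3, 43.1 and 96.5 CPM in ExE, against 13.7, 19.1 and 29.3 CPM in E (1.40 ± 0.16, adjusted p = 3.74e-07), and Lipa, the lysosomal lipase that frees cholesterol from its esters, lay lower in ExE (-1.56 ± 0.32, adjusted p = 3.84e-04). Osbpl9, an oxysterol-binding protein relative, lay higher (0.94 ± 0.20, adjusted p = 4.39e-04). The differences of Dgat2 and Plin2 exceed that of every member.

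Among 17 tested genes of fatty acid synthesis that SREBP1 is known to act on, 1 rose and 5 fell in ZZ, 2 rose and 6 fell in Zwt and 2 rose and 3 fell in wt embryos (median -0.14). Fads2, a desaturase of polyunsaturated fatty acids, had 7.60, 19.3 and 34.7 CPM (lowest, median, highest) in ExE, against 73.7, 101 and 115 CPM in E (-2.26 ± 0.14, adjusted p = 2.24e-10). Mid1ip1, an activator of acetyl-CoA carboxylase, had 2.35, 14.3 and 50.0 CPM in ExE, against 90.9, 147 and 184 CPM in E (-2.74 ± 0.30, adjusted p = 2.44e-07). Elovl1, a fatty acid elongase, went the other way, with 38.0, 73.4 and 110.1 CPM in ExE, against 5.17, 13.97 and 31.4 CPM in E (2.27 ± 0.25, adjusted p = 1.89e-07), as did the stearoyl-CoA desaturase Scd1 (0.74 ± 0.14, adjusted p = 1.69e-04). Neither ExE nor E pools crossed for Fads2, Mid1ip1 or Elovl1. Srebf1, the factor known to act on this list, thus rose in ExE while more of the list fell than rose.

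Of 9 genes of the liver X receptor and sterol efflux, 1 rose and 1 fell in ZZ and 2 rose and 1 fell in both Zwt and wt embryos (median 0.14). Abcg1, which exports cholesterol to lipoproteins, had 0, 1.36 and 6.12 CPM (lowest, median, highest) in ExE, against 6.61, 14.7 and 17.9 CPM in E (-3.17 ± 0.40, adjusted p = 1.24e-06), and Lpcat3, a phospholipid acyltransferase, rose (0.92 ± 0.15, adjusted p = 3.37e-05). Of 9 further genes of cholesterol synthesis and uptake, 3 rose and 1 fell in ZZ and in Zwt and 2 rose in wt embryos (median 0.60). They include Scarb1, the receptor that takes up cholesterol from high-density lipoprotein. Scarb1 had 75.9, 112 and 158 CPM in ExE, against 39.8, 57.4 and 70.6 CPM in E (1.06 ± 0.12, adjusted p = 4.79e-07). The list also holds Acat1 (2.50 ± 0.26, adjusted p = 1.21e-07). Its product is the mitochondrial thiolase, whereas the cytosolic thiolase at the entry to the pathway is that of Acat2. Of 10 genes of SREBP processing and turnover (median 0.32), 1 rose and 0 fell in each genotype. Of 12 genes of isoprenoid use (median 0.40), 0 passed in ZZ, 2 rose in Zwt, and 1 rose and 1 fell in wt embryos, with Rabggtb, a subunit of the Rab prenyl transferase, higher in Zwt and wt ExE (0.69 ± 0.12 over the 3 genotypes, adjusted p = 4.19e-05). Over the 3 genotypes, where 22.1% of all genes rose and 23.9% fell, 5 rose and 2 fell of the esterification and storage list, 3 and 7 of the fatty acid list, 2 and 1 of the efflux list, 5 and 1 of the further synthesis and uptake genes, 4 and 0 of the processing list and 7 and 2 of the isoprenoid list. In the 4 genotype comparisons and both interactions, 0 genes of these lists passed.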

How the data were processed

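Poly(A) RNA from 23 pools in 6 groups was amplified and sequenced as single 75-bp reads. Reads were trimmed and filtered with FastX 0.0.13, cutadapt 1.7.1 and ShortRead 1.16.3, per the labels' protocols, and the submitters' processing notes also name TopHat2 2.0.12 and mm10. No source used here gives the counting program, annotation or strand setting. The authors deposited a raw read count for each gene, without normalisation.

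From these, edgeR 4.0.16 in R 4.3.3 was run with filterByExpr (minimum count 10, minimum total 15), TMM scaling and glmQLFTest, two-sided, with p-values adjusted over all genes tested. Tissue and interaction contrasts came from all 23 libraries, genotype contrasts from each tissue alone. SE is the log2 fold change over the root of F. Alternatives were DESeq2 1.42.0, its size factors, no filter, a pool block, a GC and length correction, marker covariates, subsets of groups and leaving out libraries. Exon lengths and GC content came from GENCODE M21. Same-numbered E and ExE pools share litters in 3 of 4 pools per the labels. The correlation of their deviations had a median of 0.11 over 10 pairs (-0.09 to 0.62). The highest value is that of ZZ E pool 3 and ZZ ExE pool 3, both of steep length slope, and the next highest was 0.38. Replicates within a group (33 pairs) all differed beyond counting noise. Spread between pools, biological and technical together, is what the p-values reflect.

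Members and lists were chosen with earlier results of these data known, and the contrast over the 3 genotypes was added after the values were seen. Genes with values in every pool were Srebf1, Srebf2, Scap, Insig1, Insig2 and those called alike in at least 2 tissue contrasts (Pmvk, Ebp, Fdft1); Mvd, Idi1 and Sc5d were added after their values were seen. For genotype contrasts the 3 members of smallest p are given, and for neighbouring lists up to 4 genes of largest change called alike in at least 2 tissue contrasts. Some genes of those lists are counted but not reported by name here.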

Additional observations from a re-analysis of the deposited data

Results flagged for a closer look

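Of 85 groups of 4 pools examined over 17 genes, 2 held a pool that stood far from the other 3, where chance gives about 1 group in 20. Insig1 was at 34.9 CPM in wt E pool 5, against 58.6 to 63.3 CPM in the other wt E pools. Npc1 was at 30.3 CPM in wt E pool 2, against 23.1 to 23.7 CPM in the other wt E pools, and the lower level of Npc1 in ZZ E was measured against a group that holds this pool.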

How the results depend on the processing

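Counts of called members moved with the fit in the tissue contrasts only. Calls over all genes moved too, so brackets give the share of members and then that of all genes in the same fit. In ZZ the count of 4 (14.3%, 16.8%) became 7 with the block plus GC and length correction (25%, 21.2%). It was 0 with the 2 groups fitted alone, on fewer samples (0%, 8.19%), and 2 to 5 with a library left out. In Zwt the count of 3 (10.7%, 27%) became 9 with the replicate block (32.1%, 30.6%), to which Zwt E pool 4, of steep slope, adds nothing. It was 8 with GC and length correction (28.6%, 33.8%), 8 with both (28.6%, 30.7%) and 8 without the 3 libraries of steep slope (28.6%, 35.6%). With a library left out it was 2 to 6. In wt the count of 3 (10.7%, 17.3%) became 7 with the replicate block (25%, 25.8%), 6 with GC and length correction (21.4%, 23.5%) and 7 with both (25%, 26%). It was 8 without the 3 libraries (28.6%, 26.3%) and 7 with the 2 groups alone (25%, 24.7%). With a library left out it was 0 to 4. The cause was not tested. In the genotype and interaction contrasts 0 members were called under every alternative run, including DESeq2 and a block on pool number. Numbers were not treated as pairing genotypes in the main fits. Same-numbered pools of unlike genotype correlated at a median of 0.14 in E (-0.51 to 0.31) and -0.05 in ExE (-0.20 to -0.01). For pools of unlike number the medians were -0.01 in E and 0.02 in ExE. In E these values do not settle whether numbers pair genotypes. In ZZ against wt ExE the decidua covariate moved the members' median to 0.082 and reversed Insig1 to 0.30. That level was higher in all ZZ than in all wt ExE pools, so decidua and genotype cannot be told apart there. On single genes and with libraries kept, 362 values were the same in direction and call, 11 gained the call, 15 lost it and 1 reversed; with a library left out, 499 were the same, 3 gained it, 43 lost it and 0 reversed. At these depths a count of 0 allows up to 3 counts, 0.316 to 0.611 CPM, counting error only.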
